A study of Homo sapiens with 6 samples.

Results

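The 6 genes described here, SERPINA1, SERPINA3, SERPINA4, SERPINA5, SERPINA6 and SERPINA10, encode plasma proteins of serpin clade A, and were taken by symbol from a table of 23368 distinct genes. All 6 were present and all 6 passed the filter on low values, among 14598 genes tested. Each lies on chromosome 14. The deposited identifiers in the rows kept are ENSG00000197249 (SERPINA1), ENSG00000196136 (SERPINA3), ENSG00000100665 (SERPINA4), ENSG00000188488 (SERPINA5), ENSG00000170099 (SERPINA6) and ENSG00000278767 (SERPINA10). Repeated rows of a gene were dropped without regard to this identifier, so other identifiers may have been deposited for the same gene. The RNA came from HepG2, a line of human liver cancer cells that secretes many plasma proteins. Cells had been transduced with a lentivirus made in HEK293T cells from the pLKO vector. In the 3 shCHROME libraries, lettered a to c, it carried a short hairpin RNA against all variants of the long noncoding RNA CHROME, and in the 3 EV libraries, lettered alike, a non-targeting hairpin. On this description both groups carry a vector and a hairpin, but the sample titles name the controls only EV, without spelling it out. The titles give a single hairpin label for the knockdown. CHROME itself was not analysed here, so no value for the extent of the knockdown stands beside the results.

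Serpins inhibit serine proteases by a suicide mechanism. The protease cuts an exposed loop of the inhibitor, stays bound to it, and is distorted and inactivated as the loop inserts into the body of the serpin. Clade A holds some of the inhibitors that hepatocytes release into blood, together with relatives that no longer inhibit proteases and carry hormones in their place. SERPINA1 (alpha-1-antitrypsin) protects the lung from neutrophil elastase, and SERPINA3 (alpha-1-antichymotrypsin) inhibits cathepsin G and rises in the acute phase response. SERPINA4 (kallistatin) binds tissue kallikrein, SERPINA5 is the protein C inhibitor, and SERPINA10 inhibits coagulation factor Xa with protein Z as cofactor. SERPINA6 is corticosteroid-binding globulin, the carrier of cortisol in plasma, which is not an inhibitor.

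The promoters of 4 of the genes are shown because 3 of them drive the transcripts that fell and the other drives the acute phase member that did not pass the test. Each runs from 250 bases before to 50 bases after a start site, 5′ to 3′ on the gene's strand, from RefSeq on build GRCh38.p14; the authors' values were made on hg19. Capitals mark GTTAAT on either strand (reverse complement ATTAAC), a hexamer, and TTCNNNGAA, the spaced palindrome bound by STAT proteins. SERPINA1 has 2 starts in this table, and the downstream one, which hepatocytes are known to use, is given at chr14:94388553-94388852 on the minus strand. SERPINA6 lies at chr14:94323287-94323586 on the minus strand, SERPINA4 at chr14:94561192-94561491 on the plus strand and SERPINA3 at chr14:94612141-94612440 on the plus strand.
SERPINA1: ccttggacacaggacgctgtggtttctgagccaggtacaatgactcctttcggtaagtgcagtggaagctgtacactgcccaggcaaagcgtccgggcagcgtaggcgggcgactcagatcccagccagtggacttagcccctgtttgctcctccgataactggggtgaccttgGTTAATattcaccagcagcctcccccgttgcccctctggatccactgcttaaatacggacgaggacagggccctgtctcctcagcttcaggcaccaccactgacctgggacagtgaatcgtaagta
SERPINA6: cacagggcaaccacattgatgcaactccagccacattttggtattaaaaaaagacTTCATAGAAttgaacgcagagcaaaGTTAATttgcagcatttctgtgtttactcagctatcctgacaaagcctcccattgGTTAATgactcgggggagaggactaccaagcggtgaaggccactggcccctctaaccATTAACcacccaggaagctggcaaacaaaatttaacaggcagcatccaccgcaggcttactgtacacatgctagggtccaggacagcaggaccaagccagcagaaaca
SERPINA4: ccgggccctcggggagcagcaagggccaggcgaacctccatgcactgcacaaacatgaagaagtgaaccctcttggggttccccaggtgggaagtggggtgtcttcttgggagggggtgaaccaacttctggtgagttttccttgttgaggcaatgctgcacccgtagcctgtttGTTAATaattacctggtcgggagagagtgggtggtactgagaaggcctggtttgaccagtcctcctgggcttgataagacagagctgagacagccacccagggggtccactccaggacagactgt
SERPINA3: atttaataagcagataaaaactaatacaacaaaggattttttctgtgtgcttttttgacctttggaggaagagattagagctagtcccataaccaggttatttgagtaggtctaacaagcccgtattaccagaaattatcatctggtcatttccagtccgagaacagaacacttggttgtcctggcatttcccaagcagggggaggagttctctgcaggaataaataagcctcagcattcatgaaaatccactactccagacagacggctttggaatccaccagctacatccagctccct

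The SERPINA1 promoter held 1 GTTAAT, at bases -76 to -71 from the start, and that of SERPINA4 held 1 at almost the same distance, -75 to -70. The SERPINA6 promoter held 3 such hexamers, at -170 to -165, -115 to -110 and, on the opposite strand, -58 to -53, beside 1 STAT palindrome at -195 to -187. Of the members whose promoters are not printed, SERPINA10 held 1 GTTAAT at -55 to -50 from the first of its 2 starts and SERPINA5 held 1 STAT palindrome at -220 to -212. The SERPINA3 window, the upstream SERPINA1 window and the second SERPINA10 window held neither set of letters. The motifs did not overlap each other in these windows. Of the other clade A genes with a promoter here, SERPINA7 held 2 GTTAAT and no STAT palindrome. AGT and SERPINA11 held 0 GTTAAT and 1 STAT palindrome each, and SERPINA9 and the 3 SERPINA12 windows held neither. Whether these letters bear on the levels described below was not tested. Of all 35116 promoters of this length in the table, 6.88% held GTTAAT at least once, 0.527% held it more than once, and 7.66% held the STAT palindrome. A match is a description of the sequence and not evidence of a bound site.

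Recovered read totals ran from 29188213 to 35429420 in the EV libraries and from 29477352 to 33911426 in the shCHROME libraries. Whether each library was a culture of its own is stated nowhere in the labels, and p-values here rest on a spread that may be technical. Over all genes tested with limma, 1003 were lower and 532 higher in shCHROME. Scaled to library totals, 702 were lower and 936 higher, and calls in both directions numbered 932, 972 and 844 once library a of EV, c of EV or c of shCHROME was left out. HepG2 identity was visible in each library, with no marker of hepatocytes at 0. Of 10 such markers, 6 fell and none rose, AFP 1.83-fold, TTR 1.65-fold, APOA1 1.29-fold and TF 1.18-fold among them (for TF the adjusted p was 0.0598 with library c of EV left out and 0.0573 with c of shCHROME left out). With library c of EV left out 3 of the 10 were called lower, ALB (albumin, adjusted p up to 0.141 over the alternatives), ASGR1 and TF no longer among them, and APOA2, an apolipoprotein named after its value was seen, was called higher when library totals were used or library b of EV was left out. Their summed level was 1389000 to 1505000 normalized counts in EV and 1119000 to 1311000 in shCHROME, and its part in the results below was not tested. Of 10 myeloid markers (monocytes also make SERPINA1), MPO and S100A8 were at 0 in every library and only LYZ was called, 1.22-fold higher, a call lost on leaving out library c of EV (adjusted p = 0.0534), a of shCHROME (0.0596) or c of shCHROME (0.0613). Their summed level was 5176 to 5254 normalized counts in EV and 5662 to 7205 in shCHROME. Of 8 markers of the packaging cells, NEFL and NEFM were at 0 in every library, and CDH2 alone was called, 1.17-fold lower, a call lost on leaving out library a of EV (adjusted p = 0.088), c of EV (0.0571) or c of shCHROME (0.0668). These summed to 5712 to 6180 normalized counts in EV and 5452 to 5693 in shCHROME.

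Transcripts of SERPINA1, SERPINA4 and SERPINA6 fell in shCHROME cells, by 1.2-fold, 1.25-fold and 1.33-fold. Those of SERPINA5, SERPINA10 and SERPINA3 did not pass the test. No member rose. A call is a limma adjusted p under 0.05 in the fit over all genes, and 3 of 6 members were called lower against 6.87% of all genes tested, and 0 of 6 higher against 3.64%. In 5 of the 6 genes every shCHROME library was below every EV library, which held for 15.0% of all genes tested. Without EV replicate c 1 member was called, and without shCHROME replicate c 2. The median log2 fold change of the members was -0.21, and that of all genes tested 0.01. In this bulk RNA, fewer cells making a transcript and less of it per cell cannot be told apart.

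**Figure D1:**
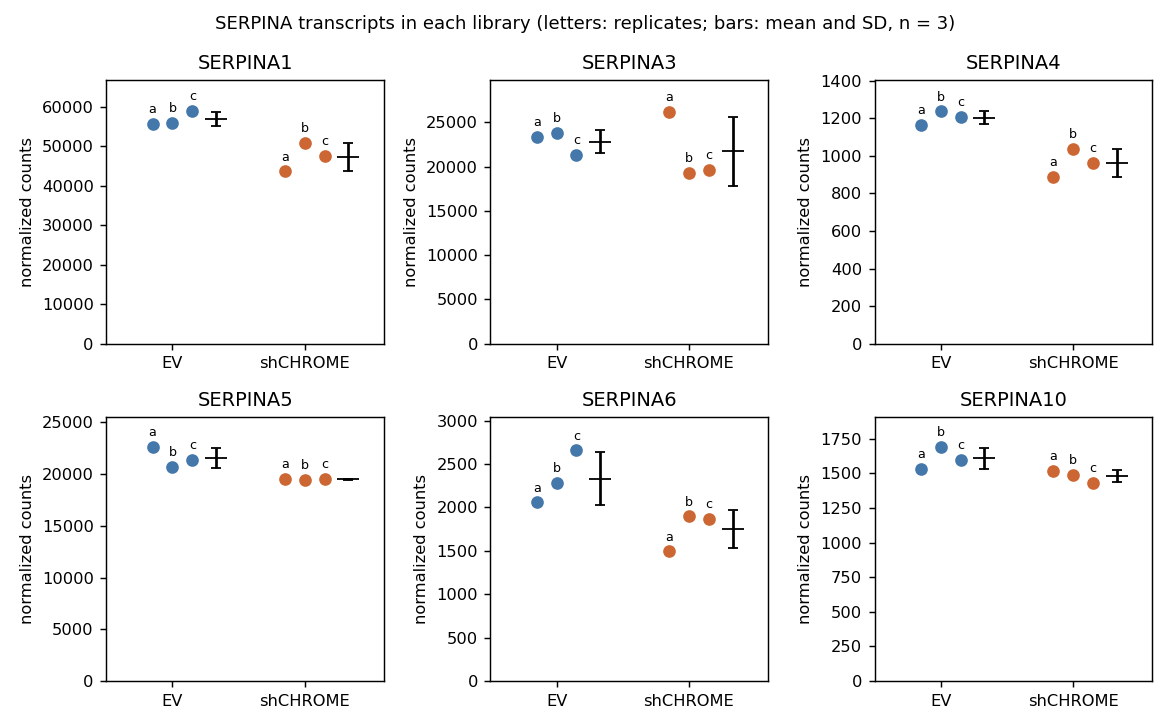
Normalized counts of the 6 SERPINA genes in each library, 1 panel per gene, with points for replicates a, b and c of EV and shCHROME and black marks for the mean and SD (n = 3 per group). The groups are apart in every panel except that of SERPINA3, where shCHROME replicate a is the highest of the 6 libraries and replicates b and c are the lowest.

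SERPINA1, the elastase inhibitor, had 55770, 56030 and 58950 normalized counts (read counts divided by the authors' size factor of each library) in EV replicates a, b and c. In shCHROME replicates a, b and c it had 43650, 50800 and 47520. The groups did not overlap, and the highest shCHROME library stayed below the lowest EV library. The means were 56920 ± 1760 and 47320 ± 3580 (SD, n = 3 per group, as for every ± below), a log2 fold change of -0.27 (SE 0.063, 95% interval -0.40 to -0.14, limma adjusted p = 0.0097). SERPINA1 missed the threshold when library c of EV (adjusted p = 0.0521) or c of shCHROME (0.0501) was left out, over a range of 0.000812 to 0.0521 in 16 alternatives. SERPINA2, a pseudogene beside SERPINA1 that resembles it in sequence, was not analysed here, and how the authors' counting treated reads that fit both is not stated in the labels.

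SERPINA4, the tissue kallikrein inhibitor, had 1167, 1237 and 1206 normalized counts in EV and 888.3, 1037 and 960.9 in shCHROME, replicates a, b and c in turn. The groups were apart, with shCHROME replicate a the lowest. The means were 1203 ± 34.8 and 962.1 ± 74.4, with a log2 fold change of -0.32 (SE 0.076, 95% interval -0.48 to -0.17, limma adjusted p = 0.00977). Its call was kept in each of the 16 alternatives, where adjusted p ran from 0.00229 to 0.0429.

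SERPINA6, the cortisol carrier, had 2058, 2282 and 2658 normalized counts in EV and 1494, 1896 and 1864 in shCHROME. Both groups were widely spread, and still the highest shCHROME library was below the lowest EV library. The means were 2332 ± 303 and 1752 ± 223. The log2 fold change of -0.41 (SE 0.094, 95% interval -0.61 to -0.22, limma adjusted p = 0.00795) was the largest of the 6. With the highest EV library, c, left out the adjusted p was 0.0593, above the threshold, and over the 16 alternatives it was 0.00105 at the lowest.

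SERPINA5, the protein C inhibitor, had 22630, 20680 and 21360 normalized counts in EV and 19510, 19460 and 19550 in shCHROME. The 3 shCHROME libraries lay close together below all EV libraries, with an SD of 44.3 around 19510 against 989 around 21550. The log2 fold change was -0.14 (SE 0.054, 95% interval -0.26 to -0.03), with a limma adjusted p of 0.105. None of the 16 alternatives called the gene, and its adjusted p was 0.0689 to 0.391.

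SERPINA10, the factor Xa inhibitor, had 1534, 1689 and 1597 normalized counts in EV and 1519, 1491 and 1431 in shCHROME. The groups did not overlap, although replicate a of EV and replicate a of shCHROME were close. The log2 fold change was -0.12 (95% interval -0.26 to 0.02, limma adjusted p = 0.302), between means of 1607 ± 78 and 1480 ± 45. None of the 16 alternatives called it, with adjusted p from 0.263 to 0.621.

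SERPINA3, the cathepsin G inhibitor of the acute phase, had 23320, 23760 and 21300 normalized counts in EV. In shCHROME it had 26200 in replicate a, 19310 in replicate b and 19650 in replicate c. Replicate a was above every EV library and the other 2 were below every EV library. The same replicate a had the lowest shCHROME values of SERPINA1, SERPINA4 and SERPINA6. The means were 22790 ± 1310 and 21720 ± 3880, with a log2 fold change of -0.08 (SE 0.087, 95% interval -0.27 to 0.10, limma adjusted p = 0.62). Without shCHROME replicate a the log2 fold change was -0.23 with an adjusted p of 0.0175, and without shCHROME replicate b it was 0.00 with an adjusted p of 0.984, so the value of this gene rests on single libraries.

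**Figure D2:**
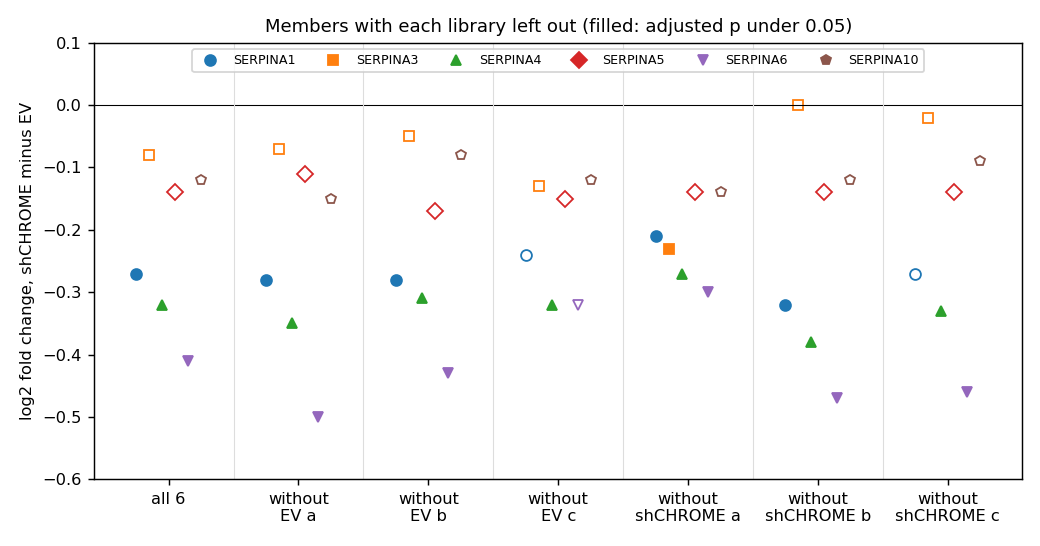
Log2 fold change of each member (vertical axis, shCHROME minus EV) with all 6 libraries and with each library left out in turn, filled where the limma adjusted p was under 0.05. SERPINA4 is filled throughout, SERPINA3 is filled only without shCHROME replicate a, and SERPINA1 and SERPINA6 are both open without EV replicate c.

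The members were also set against SERPINA1 within each library, a comparison that does not depend on library scaling. The exact permutation test of 3 libraries against 3, two-sided, cannot go below p = 0.1, so no ratio could pass 0.05 and the values are given as a description. The SERPINA4 to SERPINA1 ratio of normalized counts was 0.0212 ± 0.00083 in EV and 0.0203 ± 0.000096 in shCHROME (exact permutation p = 0.1, adjusted p = 0.375 over 5 ratios). It was lower in each shCHROME library than in any EV library, with a log2 difference of -0.06. The SERPINA3 to SERPINA1 ratio was 0.418, 0.424 and 0.361 in EV and 0.6, 0.38 and 0.414 in shCHROME, with replicate a of shCHROME standing apart. The groups overlapped in that ratio, whose log2 difference was 0.19 (exact permutation p = 0.6), or -0.01 without shCHROME replicate a. The log2 difference of the ratio to SERPINA1 was 0.13 for SERPINA5 (exact permutation p = 0.2), -0.14 for SERPINA6 (exact p = 0.3) and 0.15 for SERPINA10 (exact p = 0.3).

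Per kilobase of exon (union of GENCODE release 29 exons), SERPINA1 was the most abundant member, at 14100 ± 437 normalized counts per kilobase in EV. SERPINA5 followed with 8250 ± 378, SERPINA3 with 5390 ± 311, SERPINA6 with 1520 ± 197, SERPINA4 with 515 ± 14.9 and SERPINA10 with 294 ± 14.3. Neighbours in this order did not overlap in their EV libraries. In shCHROME the order was the same, from 11700 ± 886 for SERPINA1 and 7470 ± 17 for SERPINA5 to 270 ± 8.22 for SERPINA10, also without overlap between neighbours. The highest SERPINA3 library reached 6190 and the lowest SERPINA5 library 7450. Of the summed level per kilobase of the 6 genes, SERPINA1 made up 46.9% ± 1.1 in EV and 44.8% ± 3.1 in shCHROME, SERPINA5 27.4% ± 1.2 and 28.6% ± 0.48, and SERPINA3 17.9% ± 1.2 and 19.6% ± 3.6. SERPINA6 made up 5.06% ± 0.63 and 4.37% ± 0.55, SERPINA4 1.71% ± 0.061 and 1.57% ± 0.11, and SERPINA10 0.977% ± 0.055 and 1.03% ± 0.026. The group means differed by less than 1 SD of the wider group for SERPINA1 and SERPINA3, and by more than that for SERPINA4 and SERPINA6, with no test of the shares. The labels do not state which exons the authors counted, so levels per kilobase carry the error of that length.

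The other clade A genes of the table were lower wherever they could be tested. All 4 tested genes fell, SERPINA7, AGT, SERPINA11 and SERPINA12, with a median log2 fold change of -0.49. SERPINA7, the thyroxine-binding globulin, is another hormone carrier and is encoded on chromosome X. It had 4692, 4621 and 4735 normalized counts in EV and 3230, 3027 and 3359 in shCHROME, well apart, a 1.46-fold fall (log2 fold change -0.55, limma adjusted p = 7.31e-06). AGT, angiotensinogen, the precursor of angiotensin and encoded on chromosome 1, fell 1.26-fold from 24640 ± 1040 to 19550 ± 626 normalized counts (limma adjusted p = 0.0007). Neither gene lies in the cluster on chromosome 14. SERPINA11, which does, fell 1.36-fold from 1980 ± 289 to 1450 ± 33.3 normalized counts (limma adjusted p = 0.00294). SERPINA12 (vaspin) fell 1.79-fold from 126.1 ± 25.2 to 71.14 ± 21.3 normalized counts (limma adjusted p = 0.0193), on 382 and 209 reads over the groups. That call was lost without EV replicate b, EV replicate c or shCHROME replicate a (adjusted p = 0.074, 0.0853 and 0.061). SERPINA9 was below the filter with 7 reads in all of EV and 5 in all of shCHROME, and SERPINA13 is listed at 0 in every library.

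**Figure D3:**
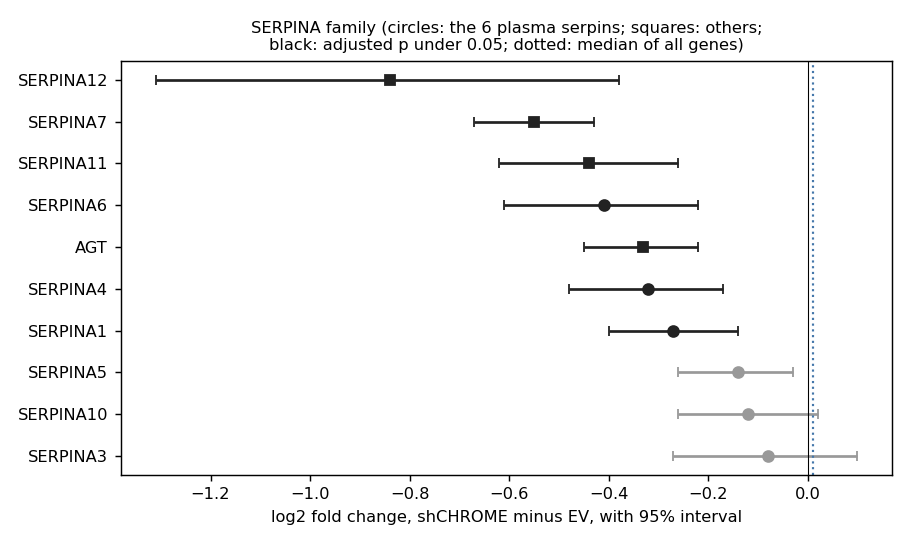
Log2 fold change (shCHROME minus EV) with its 95% interval for the 10 tested genes of clade A, black where the limma adjusted p was under 0.05, circles for the 6 plasma proteins described here and squares for the other genes. All 10 values are below 0, against 6976 of 14598 over all genes tested, and the 3 grey members are the 3 nearest to 0.

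Along chromosome 14 the members form a run of serpin genes. In RefSeq order the protein-coding genes are SERPINA10, SERPINA6, SERPINA1, SERPINA11, SERPINA9, SERPINA12, SERPINA4, SERPINA5 and SERPINA3. The called genes occupied the middle of the run, from SERPINA6 to SERPINA4 except for SERPINA9, which could not be tested, and the uncalled members SERPINA10, SERPINA5 and SERPINA3 lay at its ends. The gene before SERPINA10, PPP4R4, a regulatory subunit of a protein phosphatase, was 1.34-fold higher (limma adjusted p = 0.0374), with its call lost with every gene of 1 read kept, with a replicate block, and without EV replicate a or any 1 shCHROME library (adjusted p up to 0.193). CLMN, beyond SERPINA3, fell 1.3-fold (limma adjusted p = 0.0102), a call lost without EV replicate a (0.0616). Of 20 tested genes in a list flanking the cluster, these were the 2 called, and the median log2 fold change was 0.03.

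**Figure D4:**
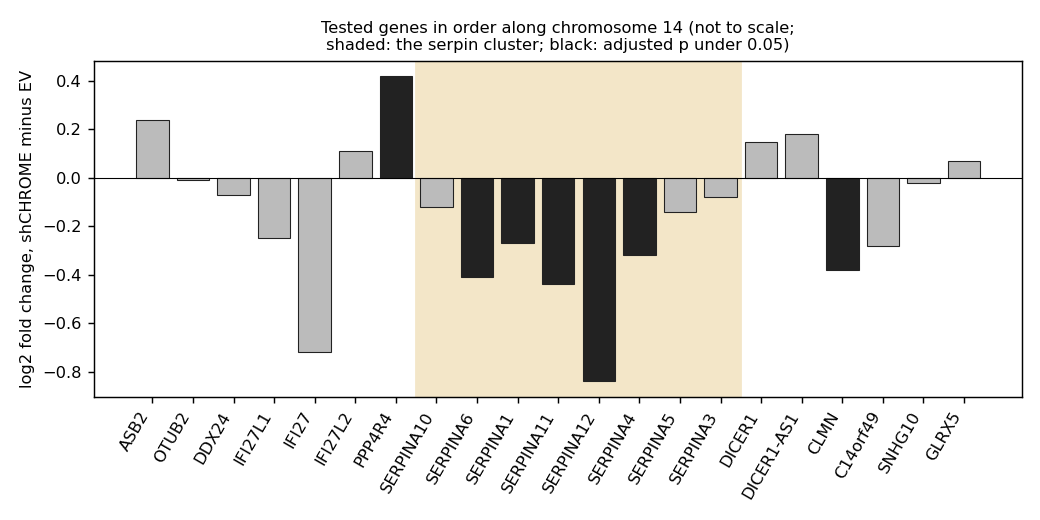
Log2 fold change (shCHROME minus EV) of tested genes in their order along chromosome 14, not to scale, with the serpin cluster shaded and called genes in black. All 8 tested serpins are below 0 (6976 of 14598 over all genes tested), whereas PPP4R4 next to SERPINA10 is at 0.42.

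Serpins of other clades did not move in 1 direction. Among 13 tested of 24 listed genes there were 3 falls and 1 rise, and 9 remained uncalled. SERPINF1, which encodes the antiangiogenic factor PEDF, fell 1.32-fold from 20000 ± 209 to 15150 ± 730 normalized counts (limma adjusted p = 9.99e-05). SERPIND1, heparin cofactor II, fell 1.28-fold (limma adjusted p = 0.000247), and SERPINB1, an intracellular inhibitor of neutrophil proteases, 1.16-fold (0.0396, lost with library totals, a replicate block, and without any 1 library but shCHROME replicate a, up to 0.163). The median log2 fold change of the 13 was -0.08.

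Among proteases, cofactors and hormone partners of these serpins, 17 genes were tested, with 2 falls, 1 rise, 14 uncalled and a median log2 fold change of -0.01. F10, which encodes the factor X that SERPINA10 inhibits once activated, fell 1.43-fold from 4620 ± 148 to 3243 ± 170 normalized counts (limma adjusted p = 1.92e-05). PROS1, the cofactor protein S, fell 1.17-fold (0.0331, lost with library totals, a replicate block, and without any 1 library but shCHROME replicate a, up to 0.11). The proprotein convertase gene FURIN rose 1.48-fold from 2007 ± 366 to 2953 ± 178 normalized counts (limma adjusted p = 0.000599). Of 3 partners chosen for their role after their values were seen, PROZ, the cofactor of SERPINA10, had 78.01 ± 6.83 and 55.09 ± 21.6 normalized counts (limma adjusted p = 0.158, or 0.045 without shCHROME replicate c). PROC, the target of SERPINA5 in its activated form, had a log2 fold change of -0.08 (adjusted p = 0.522), and NR3C1, the receptor of cortisol, of -0.01 (95% interval -0.12 to 0.11). ELANE and KLK1, the proteases of SERPINA1 and SERPINA4, are listed at 0 in every library.

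Receptors that clear such proteins gave 1 fall and 1 rise among 9 tested genes. ASGR1, a subunit of the asialoglycoprotein receptor, fell 1.14-fold (limma adjusted p = 0.0391, lost with library totals, the loosest filter, a replicate block, and without any EV library or shCHROME replicate c, up to 0.216). VLDLR, a lipoprotein receptor, rose 1.51-fold (0.0155, lost without EV replicate b, shCHROME replicate b or shCHROME replicate c, up to 0.084). Their median log2 fold change was -0.07.

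Signalling genes of the acute phase gave 2 falls and no rise among 18 tested. IL1R1, the interleukin-1 receptor, fell 1.32-fold from 2587 ± 72.1 to 1966 ± 102 normalized counts (limma adjusted p = 0.000493). LIFR, a receptor subunit of the interleukin-6 family, fell 1.16-fold (0.0313, lost with library totals, a replicate block, and without any EV library or shCHROME replicate a, up to 0.109). Of 16 tested acute phase plasma proteins, there were 4 falls, 1 rise and 11 uncalled, with a median log2 fold change of -0.05. ITIH3, of the inter-alpha-inhibitor family, fell 1.51-fold and A2M, a broad protease inhibitor, 1.43-fold, from 288500 ± 12800 to 201100 ± 6150 normalized counts. HP, haptoglobin, fell 1.3-fold, a call lost without shCHROME replicate c (adjusted p = 0.0577), where TF was uncalled too and 2 of the 4 falls were left. SAA4, a constitutive serum amyloid A gene, rose 1.73-fold. TF, the remaining fall, was also counted among the hepatocyte markers above. The list was not split into proteins that rise and proteins that fall in the acute phase.

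Transcription factors of the liver gave no fall among 17 tested genes and 2 rises, with a median log2 fold change of 0.09. ONECUT1 rose 1.48-fold from 142.6 ± 23.3 to 212 ± 33.2 normalized counts (limma adjusted p = 0.0228, lost without EV replicate a or b and without shCHROME replicate b or c, up to 0.136). NR5A2 was called higher from 3.067 ± 3.56 to 14.53 ± 4.08 normalized counts (limma adjusted p = 0.0269) on 9 and 43 reads over the groups. That call was lost without EV replicate a or b and without any 1 shCHROME library (adjusted p up to 0.153). HNF4A, a nuclear receptor of hepatocytes named after its value was seen, differed by -0.03 on the log2 scale (limma adjusted p = 0.831, 95% interval -0.16 to 0.10). CEBPA, also named after its value was seen, had a log2 fold change of -0.18 (limma adjusted p = 0.0684, 95% interval -0.30 to -0.05). It was called lower without shCHROME replicate b (adjusted p = 0.0108). Of the 17 genes, 1, CEBPA, had every shCHROME library below every EV library, and 4 had every shCHROME library above.

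Genes that fold, export or dispose of secreted glycoproteins in the endoplasmic reticulum fell in 9 of 25 tested cases, and none rose. The other 16 did not pass the test, the median log2 fold change was -0.17, and 23 of 25 values were negative. Over all genes tested, 6976 of 14598 values were negative. LMAN1, a cargo receptor that carries SERPINA1 out of the endoplasmic reticulum, fell 1.24-fold from 10540 ± 289 to 8498 ± 626 normalized counts (limma adjusted p = 0.00232). The cargo receptor gene SURF4 fell 1.19-fold, OS9, a lectin of misfolded glycoproteins, 1.21-fold, and VCP, the ATPase that extracts them, 1.19-fold. These 4 calls were kept in each of the 16 alternatives, with adjusted p up to 0.0431. The count of 9 was less stable: it dropped to 4 once library c of shCHROME was left out, with no call for HSPA5, HSP90B1, PDIA4, UGGT1 and ERLEC1, and to 5 once library a of EV was left out, with ERLEC1 alone of these called. HSPA5, HSP90B1 and UGGT1, named here after their values were seen, encode 2 chaperones and a folding sensor, and were also uncalled with library totals and with a replicate block.

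**Figure D5:**
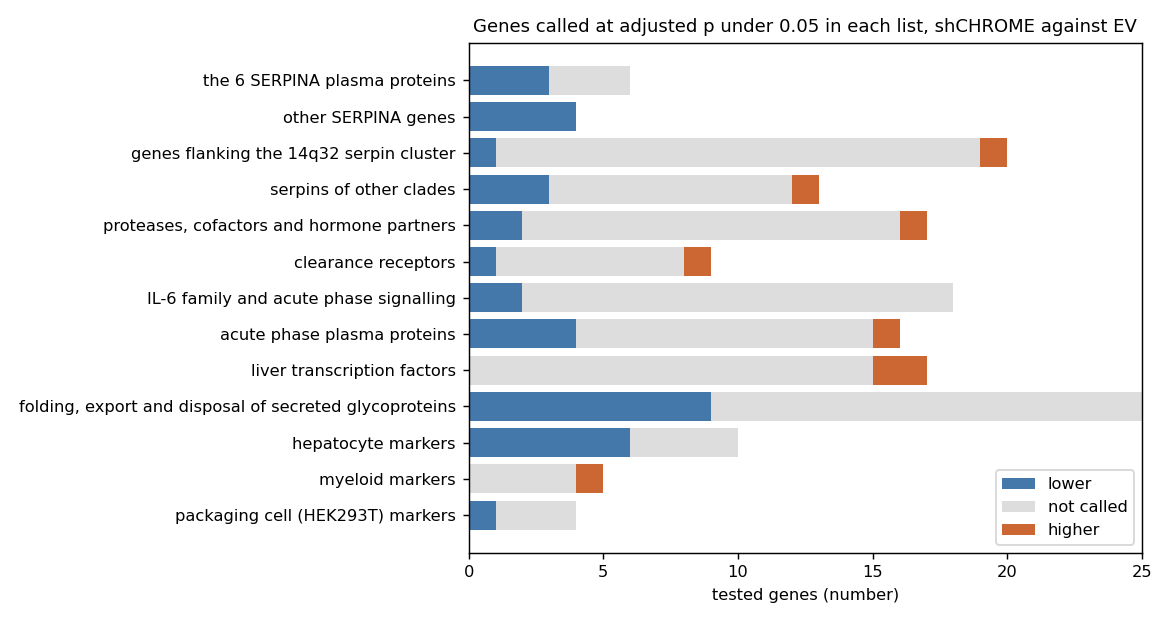
Number of tested genes called lower (blue), not called (grey) or called higher (orange) in shCHROME for the 6 SERPINA plasma proteins and each related list (horizontal axis, genes). The 4 other SERPINA genes are all blue, and the list of folding, export and disposal has 9 blue genes of 25.

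The genes whose values over the 6 libraries most resembled each member were sought among 11268 genes with a mean of at least 100 normalized counts, by the root mean square difference of log2 values after subtraction of the EV mean. For SERPINA1 they were ANO9, a gene of the anoctamin family (0.036), and TF, transferrin (0.036). TF is another abundant secreted plasma protein and had 72560, 73740 and 75090 normalized counts in EV against 59270, 65140 and 63480 in shCHROME. For SERPINA4 they were FADS1, a fatty acid desaturase (0.022), and TNFRSF14 (0.026), and for SERPINA6 MYRIP (0.039) and LOC100133612 (0.048). For SERPINA3 they were FAM96A (0.015) and UBL3 (0.03). Like SERPINA3, FAM96A was highest in shCHROME replicate a, with 1791 normalized counts, against 1312 and 1365 in replicates b and c. For SERPINA5 they were C1orf96 (0.018) and CEP85 (0.023), and for SERPINA10 PTDSS2, a phosphatidylserine synthase (0.015), and WARS2, the mitochondrial enzyme that loads tryptophan onto transfer RNA (0.018).

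The authors' deposited table, made for the same groups and so not an independent test, called the same 3 members lower. Its means for the members departed from those of the 6 libraries, as given at the end. In the authors' deposited table the log2 fold changes were -0.25 for SERPINA1 (adjusted p = 0.00286), -0.29 for SERPINA4 (0.0031) and -0.36 for SERPINA6 (0.00266). For SERPINA5, SERPINA10 and SERPINA3 the authors' deposited table gave -0.14, -0.11 and -0.04, with adjusted p of 0.176, 0.474 and 0.914.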

How the data were processed

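The 6 HepG2 RNA libraries were made with a TruSeq kit and read from both ends, per the labels' protocols. Sample titles gave the groups and letters. The submitters' processing notes name STAR 2.5, featureCounts 1.5.2, DESeq2 (written as 3.4) and hg19; the annotation and the use of strand are not given in the sources used here. The authors deposited 1 table with a normalized signal per gene and library, which proved to be read counts over a library's size factor. The authors' own mean, log2 fold change, and raw and adjusted p-value per gene are deposited beside it. Of 24656 rows, 1288 repeats were dropped and 28 symbols stored as dates were looked up by identifier. Values were whole multiples of 1 read within 0.01 reads for 100% of genes, which gave whole reads for the filter and the count tests.

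Values were compared as log2(value + 1) in limma 3.58.1 with a trend in intensity and a single group term over the 6 libraries. The filter was filterByExpr (edgeR 4.0.16), and Benjamini-Hochberg adjustment ran over the 14598 genes it kept. Fold changes are on this scale, which understates changes of low genes. Alternatives were edgeR quasi-likelihood and DESeq2 1.42.0 on the recovered reads, 4 other scalings, 2 other filters, a pseudocount of 0.1, a replicate block and each library left out. Libraries of the same group differed beyond sampling noise (chi-square per degree of freedom 5.51 to 16.2). The fit was also run on simulated data, with an outcome that is not given here.

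The members and lists were chosen with earlier results of these data known. Named genes were the 6 members, other SERPINA genes of the table, up to 4 called genes per list by p (or the 2 most expressed where none was called), and the 2 genes most like each member; others are said to be chosen after their values were seen. Promoters were matched by symbol for all 6 members and for other clade A genes. Some genes of these lists enter the counts and are not reported here by name.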

Additional observations from a re-analysis of the deposited data

How the results depend on the processing

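All 6 members kept a log2 fold change at or below 0 in each of the 16 alternatives, and 3 were called lower in each of the 10 that kept all libraries, edgeR, DESeq2 and every scaling among them. With 1 library left out, between 1 and 4 members were called, 1 without EV replicate c, 2 without shCHROME replicate c and 4 without shCHROME replicate a, and the number of genes called over all genes ranged from 844, without shCHROME replicate c, to 1579, without shCHROME replicate a, against 1535 with all libraries. The log2 fold change then ranged from -0.32 to -0.21 for SERPINA1, from -0.50 to -0.30 for SERPINA6 and from -0.23 to 0.00 for SERPINA3. The log2 difference of the SERPINA3 to SERPINA1 ratio ranged from -0.01, without shCHROME replicate a, to 0.32. The genes FAM96A and UBL3, like SERPINA3 in pattern, ranged from -0.21 to 0.01 and from -0.19 to 0.03. Why single libraries move these values was not tested.

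What libraries with the same letter share is not stated in the labels. Their deviations from the group means correlated at -0.047, -0.091 and 0.044 for a, b and c. For libraries with different letters the correlations ran from -0.083 to 0.129. With 3 libraries per group these values cannot decide whether a letter marks a shared culture or preparation. With a replicate block 1113 genes were called (349 higher and 764 lower), and the 3 members called were SERPINA1 (log2 fold change -0.27, adjusted p = 0.0284), SERPINA4 (-0.32, 0.0207) and SERPINA6 (-0.41, 0.00374). In pairs of libraries with the same letter the smallest exact p is 0.25. The alternatives for genes that are no members and for the counts of each list were added after seeing the data.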

Other observations

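The authors' deposited mean of SERPINA3 was 25921 normalized counts, whereas the mean of the 6 libraries was 22256, a ratio of 1.16. For the other members the ratio of the authors' deposited mean to the mean of the 6 libraries was 0.97 for SERPINA1, 0.95 for SERPINA4, 0.94 for SERPINA5, 0.9 for SERPINA6 and 1.05 for SERPINA10. SERPINA3 thus departed most from the 6 libraries among the members, and any other libraries behind that mean are not analysed here.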
